A study of Mus musculus with 6 samples.

Results

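The mitochondrial genome encodes 13 proteins, and 10 of its messenger RNAs were described here in the cochlea of young and old C57BL/6 mice. They are mt-Nd1, mt-Nd2, mt-Nd3, mt-Nd4, mt-Nd4l, mt-Nd5 and mt-Nd6, mt-Co1, mt-Cytb and mt-Atp8. These 10 of the 25390 genes in the table were selected by their place in the mitochondrial genome and by their level, because mt-Co2, mt-Co3 and mt-Atp6 were left out for implausibly low deposited values. The rule used levels and not the difference between ages, but earlier results of these data were known when it was set. RNA was taken from cochlear basilar membranes, with tissue of 3 mice mixed in each sample, and there were 3 samples from young mice and 3 from old mice. The young mice were 1 month old by the sample labels and 4 weeks old by the methods of the study, and the old mice were 12 months old. Both groups were C57BL/6 mice, a strain known for early hearing loss, and the labels name no treatment other than age. The values are FPKM, fragment counts scaled by transcript length and library size, with 1 value per transcript and sample. How the library size was set is not given in the sources used here.

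Mitochondrial DNA is a small circle whose strands differ in base composition and are called heavy and light. Transcription of the heavy strand gives 1 long precursor that holds both ribosomal RNAs and all messenger RNAs but 1, and transcription of the light strand gives a precursor whose messenger RNA is mt-Nd6. Transfer RNAs lie between most of the genes, and the messenger RNAs are cut free where transfer RNAs are removed. Every one of the proteins sits in the inner mitochondrial membrane as a subunit of the respiratory chain or of ATP synthase. Hair cells, neurons and the stria vascularis of the cochlea depend strongly on this oxidative metabolism.

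The genes differ in sequence by strand. The first 45 bases of each coding sequence are given in the order of the genome, 5′ to 3′ in the sense of the messenger RNA, with the first codon in capitals, because they show the composition that sets mt-Nd6 apart. They were read from the transcripts of GENCODE release M21 (GRCm38).
mt-Nd1: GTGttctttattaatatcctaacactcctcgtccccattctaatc
mt-Nd2: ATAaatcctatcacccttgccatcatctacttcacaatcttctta
mt-Co1: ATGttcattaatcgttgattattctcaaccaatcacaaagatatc
mt-Atp8: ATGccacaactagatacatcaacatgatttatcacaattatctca
mt-Nd3: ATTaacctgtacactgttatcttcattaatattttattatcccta
mt-Nd4l: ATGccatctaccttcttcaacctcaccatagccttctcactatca
mt-Nd4: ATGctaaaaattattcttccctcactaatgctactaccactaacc
mt-Nd5: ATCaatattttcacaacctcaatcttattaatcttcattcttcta
mt-Nd6: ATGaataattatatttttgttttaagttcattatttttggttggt
mt-Cytb: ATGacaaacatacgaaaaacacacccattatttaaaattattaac

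Over the whole coding sequence, mt-Nd6 held 28.1% G and 6.0% C, while the 9 heavy strand genes held between 5.9 and 16.1% G and at least 22.1% C. T made up 43.7% of mt-Nd6 and between 27.4 and 32.8% of the other genes. ATG was the first codon of 6 of the 10 genes and another codon of the mitochondrial code that of 4. mt-Nd4 and mt-Cytb end on a single T after their last full codon, which is completed to a stop codon by the poly(A) tail.

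All 10 genes lie on the mitochondrial chromosome, each as 1 exon without an intron, and the annotation gives no UTR. mt-Nd1 (ENSMUSG00000064341) spans 2751 to 3707, mt-Nd2 (ENSMUSG00000064345) 3914 to 4951 and mt-Co1 (ENSMUSG00000064351) 5328 to 6872. mt-Atp8 (ENSMUSG00000064356) spans 7766 to 7969, mt-Nd3 (ENSMUSG00000064360) 9459 to 9806 and mt-Nd4l (ENSMUSG00000065947) 9877 to 10173. mt-Nd4 (ENSMUSG00000064363) spans 10167 to 11544, mt-Nd5 (ENSMUSG00000064367) 11742 to 13565 and mt-Cytb (ENSMUSG00000064370) 14145 to 15288, all of them on the plus strand of the reference. mt-Nd6 (ENSMUSG00000064368) spans 13552 to 14070 on the minus strand. Some neighbours overlap, so that reads there can belong to either gene. mt-Nd4l and mt-Nd4 share 7 bases and are known as 1 bicistronic messenger RNA, and the stretch from 10137 to 10203 shows the shared bases in capitals.
mt-Nd4l into mt-Nd4: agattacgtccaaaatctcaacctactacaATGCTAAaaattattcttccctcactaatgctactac

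mt-Nd5 and mt-Nd6 run towards each other and share 14 bases on opposite strands. The last 44 bases of each coding sequence are given with the shared bases in capitals, which are the reverse complement of each other.
mt-Nd5 end: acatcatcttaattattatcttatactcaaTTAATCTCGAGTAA
mt-Nd6 end: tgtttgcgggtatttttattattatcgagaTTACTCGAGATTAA

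The libraries were made with a kit that keeps the strand, but whether strand was used when fragments were assigned is not given in the sources used here. Without it, heavy strand RNA that crosses mt-Nd6, as precursor or otherwise, cannot be told apart from mt-Nd6.

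The table lists all 13 protein-coding genes of the mitochondrial genome, but 0 of its 2 ribosomal RNAs and 0 of its 22 transfer RNAs. The spacing of low FPKM values put the depth, as the library size behind the FPKM, at 12560000 to 15670000 fragments a sample. By that estimate each of the 7 members of at least 500 nt rested on 535 to 106241 fragments a sample. Hair cell markers were present in every sample, with the summed level of 8 genes between 712 and 956 FPKM in young and between 372 and 441 FPKM in old mice, and 3 of the 8 were called lower. Calb2 made up most of that sum and among young samples was highest in replicate 2. Otof, Myo7a, Pou4f3, Slc26a5, Ocm and Tmc1 were lowest in that young sample, and Slc17a8 was not. The sum is therefore mainly the level of Calb2. Myo7a and Otof had log2 changes of 0.00 and -0.33 and were not called. Markers of other cell types differed between the groups. All 6 of the 6 macrophage markers were higher in old mice (limma, Benjamini-Hochberg adjusted p below the threshold of 0.05), with sums between 110 and 169 FPKM in young and between 634 and 703 FPKM in old mice. Sums for 5 spiral ganglion neuron markers lay between 478 and 942 FPKM in young and between 321 and 350 FPKM in old mice, and 4 of them were called lower. Prph went the other way, with a log2 change of 0.70, and was not called (limma adjusted p = 0.0669). The Schwann cell markers summed to between 740 and 1152 FPKM in young and between 631 and 657 FPKM in old mice, with 2 of 5 called lower. The 5 bone markers summed to between 27.4 and 203 FPKM in young and between 12.1 and 19.3 FPKM in old mice, with 2 of them called lower. The supporting cell, stria vascularis and erythrocyte lists overlapped between the groups. Skeletal muscle markers summed to at most 8.84 FPKM and cardiac or slow muscle markers to at most 1.92 FPKM, with Myh7 below 0.1 FPKM in every sample. The part of these markers in the mitochondrial results was not tested, and in bulk samples fewer cells of a type and less RNA per cell cannot be told apart.

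The question of the comparison was whether mitochondrial messenger RNAs differ between the young and the old cochlea. The mean FPKM of each of the 10 genes was lower in old mice, by between 12.9 and 39.3%. In the limma test on log2(FPKM + 0.1), adjusted over all 19450 genes tested, 6 of the 10 fell in old mice (mt-Nd1, mt-Nd2, mt-Co1, mt-Atp8, mt-Nd3 and mt-Nd4) and 0 rose, while 3.81% of all genes were called lower and 5.64% higher. These are 742 and 1097 genes, and with samples scaled to equal sums over nuclear genes 1063 were called lower and 867 higher, 7 of the 10 mitochondrial genes among the former. All old samples lay below all young samples for 7 of the 10, the same genes and mt-Cytb, against 16.1% of all genes tested. The median log2 change was -0.42 over the 10 genes and 0.01 over all genes tested. As the FPKM values of a sample share 1 scaling and these RNAs share their precursors, the 10 genes are not independent replicates of the difference. The count of called genes rested on single samples and on the model. It was 0 of 10 without the variance trend, with 7 at an unadjusted p below 0.05 in limma, and 2 of 10 with no filter on low values. It was also 0 when young replicate 1, old replicate 2 or old replicate 3 was left out. Leaving out young replicate 2 gave 1, old replicate 1 gave 3 and young replicate 3 gave 4. In the fits with a sample left out between 16 and 825 of all genes were called lower, and between 7 and 8 of the 10 genes had an unadjusted p below 0.05. The members summed to 3.24% ± 0.185 (SD, n = 3) of all FPKM in young and 2.32% ± 0.0395 (SD, n = 3) in old mice. mt-Atp8 held the largest part of this sum, and its level depends on a length correction described below.

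**Figure D1:**
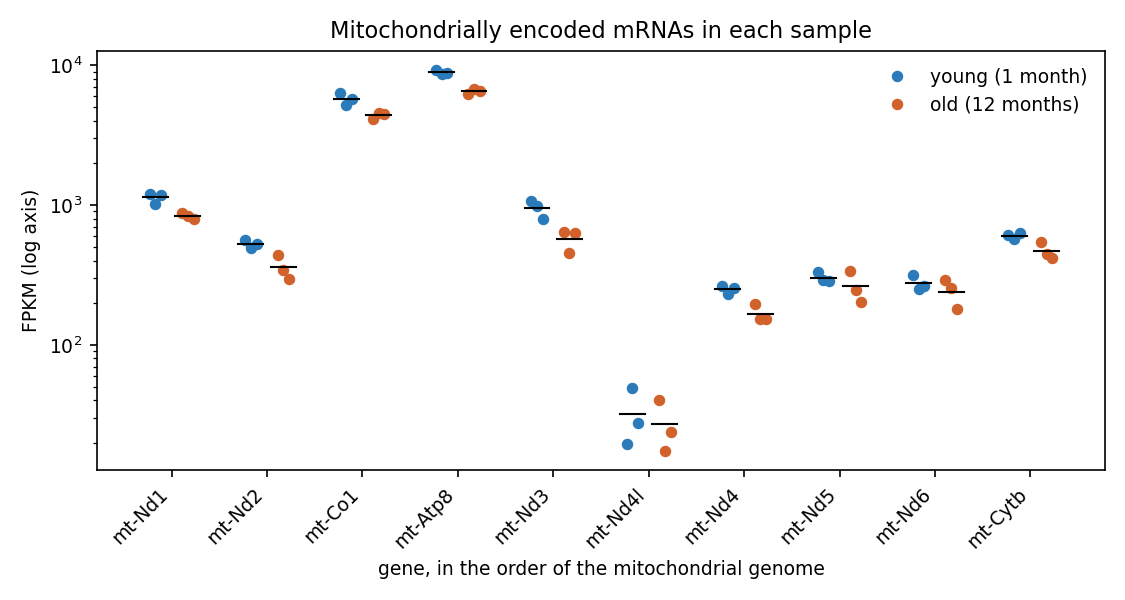
FPKM of each mitochondrial messenger RNA in the 3 young and 3 old samples, on a log axis, in genome order. Points are samples and black lines are group means. Old points lie below young points for 7 genes and overlap with them for mt-Nd4l, mt-Nd5 and mt-Nd6.

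mt-Atp8 and mt-Co1 had by far the highest values and made up between 75.6 and 80.5% of the summed level of the 10 genes in each sample. For mt-Atp8 this share holds the effect of the length correction described below. mt-Co1 encodes subunit 1 of cytochrome c oxidase (complex IV), which holds the site where oxygen is reduced. It was at 6362, 5204 and 5763 FPKM in young replicates 1, 2 and 3. Old replicates 1, 2 and 3 held 4158, 4519 and 4458 FPKM. Every old sample was below every young one, by 24.2% in the mean. On the log2 scale it fell by 0.40 (SE 0.10, limma adjusted p = 0.0499), which is at the edge of the threshold, and the call was lost with a pseudocount of 0.01 or 1, with no filter on low values, without the variance trend, with a replicate block and without any single sample. After quantile normalization the difference was -0.21 (limma adjusted p = 0.0773).

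mt-Atp8 encodes a small subunit of the membrane part of ATP synthase (complex V). Young samples held 9278, 8624 and 8753 FPKM, and old samples held 6258, 6807 and 6539 FPKM. The groups did not overlap, with 8885 ± 346 (SD, n = 3) in young and 6535 ± 274 (SD, n = 3) in old mice. mt-Atp8 fell by 0.44 on the log2 scale (SE 0.09, limma adjusted p = 0.0275). After quantile normalization the difference was -0.20 and the call was lost (limma adjusted p = 0.231), as it was with no filter on low values (limma adjusted p = 0.123). Its coding sequence of 204 nt is the shortest of the set and is shown whole, with the 43 bases that also belong to mt-Atp6 in capitals.
mt-Atp8: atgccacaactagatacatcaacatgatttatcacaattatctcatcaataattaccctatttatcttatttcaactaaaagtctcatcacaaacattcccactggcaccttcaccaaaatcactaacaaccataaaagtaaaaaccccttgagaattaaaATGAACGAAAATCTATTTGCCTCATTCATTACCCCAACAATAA

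The FPKM of such a short transcript depends on how its length is corrected. The low values of longer transcripts fell on whole fragments when 280 to 300 nt were taken off each length, which is more than mt-Atp8 has. Its level should therefore not be set beside that of longer genes. The comparison between samples uses the same annotated length, but the reduction was estimated for each sample, in coarse steps. It was 280 nt in young replicates 1 and 2 and old replicate 2. In young replicate 3 and old replicates 1 and 3 it was 300 nt. These are neighbouring steps, so that a difference in the reduction between samples is not shown. The part of the reduction in the differences of short genes was not tested. mt-Nd4l with 297 nt and mt-Nd3 with 348 nt are near these reductions, and their levels and differences carry the same limits.

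The genes named mt-Nd encode the membrane subunits of NADH dehydrogenase (complex I) that the mitochondrion makes itself. Their sum was 3472 ± 251 FPKM (SD, n = 3) in young and 2465 ± 305 FPKM (SD, n = 3) in old mice. mt-Nd1 encodes the subunit next to the ubiquinone site. Its values were 1201, 1021 and 1176 FPKM for young and 872, 830 and 792 FPKM for old samples. Young samples spread more than old ones, and the groups did not overlap. mt-Nd1 fell by 0.44 on the log2 scale (SE 0.08, limma adjusted p = 0.0256).

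mt-Nd2, mt-Nd4 and mt-Nd5 encode the 3 proton-pumping subunits of the membrane arm. mt-Nd2 was at 565, 492 and 529 FPKM in young and at 440, 346 and 294 FPKM in old mice. It fell by 0.57 on the log2 scale (SE 0.14, limma adjusted p = 0.0476). mt-Nd4 was at 262, 232 and 256 FPKM in young and at 195, 152 and 154 FPKM in old mice. It fell by 0.59 on the log2 scale (SE 0.11), with the smallest limma adjusted p of the 10, 0.0243. For both, old replicate 1 was the highest old sample and still below the young samples. mt-Nd5 was at 330, 291 and 287 FPKM in young and at 338, 247 and 203 FPKM in old mice. Here old replicate 1 held the highest value of all samples and the other old samples the lowest, so that the groups overlapped. The log2 change of mt-Nd5 was -0.24 (SE 0.17, limma adjusted p = 0.419), and it ranged from -0.43 without old replicate 1 to -0.07 without old replicate 3.

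mt-Nd3 encodes a small subunit with a loop near the ubiquinone site. It was at 1070, 977 and 800 FPKM in young and at 642, 451 and 635 FPKM in old mice. This was the largest difference of the 10 genes, 39.3% lower in the mean, and the groups did not overlap. The limit of the length reduction given above for short genes applies to this difference. On the log2 scale mt-Nd3 fell by 0.73 (SE 0.16, limma adjusted p = 0.0374). mt-Cytb encodes cytochrome b, the core of complex III that oxidises ubiquinol. It was at 612, 567 and 633 FPKM in young and at 542, 444 and 419 FPKM in old mice. The groups did not overlap, with a log2 change of -0.38 (SE 0.10), but the limma adjusted p of 0.0649 was above the threshold.

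mt-Nd4l, a small hydrophobic subunit of complex I, was by far the lowest of the 10 genes. It was at 19.4, 49.1 and 27.4 FPKM in young and at 40.1, 17.4 and 23.9 FPKM in old mice. Both groups spread by more than 2-fold and overlapped. The log2 change was -0.22 (SE 0.39, limma adjusted p = 0.753), and it was 0.14 without young replicate 2 and 0.06 without old replicate 2. Its coding sequence is shown whole because it is identical to that of a nuclear copy over its first 294 bases, and the capitals mark the 7 bases shared with mt-Nd4.
mt-Nd4l: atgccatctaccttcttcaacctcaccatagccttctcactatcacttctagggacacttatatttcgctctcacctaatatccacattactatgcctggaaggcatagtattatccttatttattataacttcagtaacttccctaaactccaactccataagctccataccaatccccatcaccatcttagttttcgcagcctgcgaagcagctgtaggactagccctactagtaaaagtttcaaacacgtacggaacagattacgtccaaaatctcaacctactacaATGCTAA

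**Figure D2:**
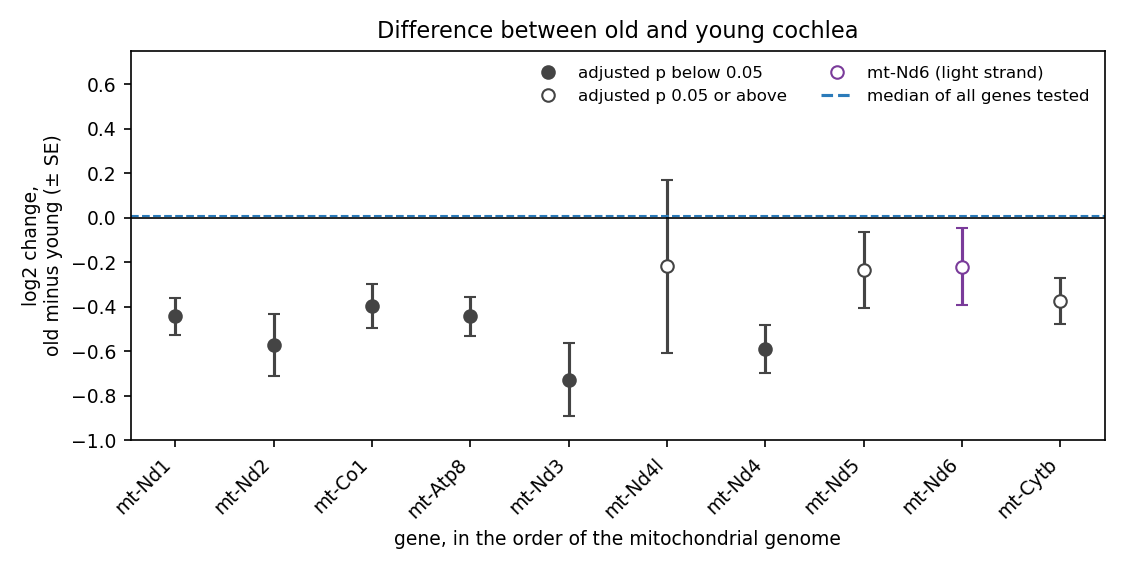
Log2 change (old minus young) of each mitochondrial messenger RNA with its SE from limma, in genome order. Filled points passed the threshold. The dashed line is the median of all genes tested, 0.01, and all 10 points lie below it.

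The order of the mean levels was the same in both groups: mt-Atp8, mt-Co1, mt-Nd1, mt-Nd3, mt-Cytb, mt-Nd2, mt-Nd5, mt-Nd6, mt-Nd4 and mt-Nd4l. In young mice mt-Nd1 and mt-Nd3, mt-Nd5 and mt-Nd6, and mt-Nd6 and mt-Nd4 overlapped with each other, and the other neighbours in this order did not. In old mice the neighbours from mt-Nd3 down to mt-Nd4 overlapped. The order also holds the effect of the length correction for the 3 short genes.

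Samples of 1 age group were not alike across the genes. Old replicate 1 was the highest old sample for 8 of the 10 genes and the lowest for mt-Co1 and mt-Atp8. Old replicate 3 was the lowest old sample for 5 genes, which were mt-Nd1, mt-Nd2, mt-Nd5, mt-Nd6 and mt-Cytb. Among the young samples, replicate 1 was the highest for 8 genes and replicate 2 the lowest for 7.

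mt-Nd6, the only messenger RNA of the light strand and a complex I subunit, was then compared with the heavy strand genes. It was at 313, 251 and 264 FPKM in young and at 289, 253 and 180 FPKM in old mice. The groups overlapped, since old replicates 1 and 2 lay within the young range and old replicate 3 lay below it. The log2 change was -0.22 (SE 0.17, limma adjusted p = 0.456), and it ranged from -0.37 without old replicate 1 to -0.02 without old replicate 3, with -0.13 without young replicate 1. The ratio of mt-Nd6 to another gene within a sample does not depend on how samples were scaled to each other. Such a ratio can still hold the length reduction, which may not be the same in every sample and whose part was not tested. On the log2 scale the mean ratio was higher in old mice for 8 of the 9 heavy strand genes, but the groups did not overlap for only 1, mt-Nd2, against 3.03% of all other genes tested.

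The log2 ratio of mt-Nd6 to mt-Nd2 was -0.85, -0.97 and -1.003 in young replicates 1, 2 and 3 and -0.61, -0.45 and -0.71 in old replicates 1, 2 and 3 (p = 0.1 in a two-sided exact permutation test, which cannot give less with 3 samples a group). Against mt-Nd4 it was 0.26, 0.11 and 0.04 in young and 0.57, 0.73 and 0.22 in old mice (exact permutation test, p = 0.2). The lowest old ratio to mt-Nd4 lay just under the highest young ratio. Against mt-Nd3 the difference of the means was 0.51 (exact permutation test, p = 0.3), with old replicate 3 among the young samples. Against mt-Nd1, mt-Co1, mt-Atp8 and mt-Cytb the differences lay between 0.16 and 0.22 (exact permutation tests, p from 0.3 to 0.5), less than the SD of the old ratios in each case. Against mt-Nd5 the difference was 0.02, with an SD of the ratios of 0.07 in young and 0.14 in old mice (exact permutation test, p = 0.9), and against mt-Nd4l it was 0.00 (p = 1). None of these 9 exact tests could reach the threshold in this design. Without old replicate 3 the groups did not overlap for 7 of the 9 ratios, against 12.7% of all other genes, and without young replicate 1 for 2, against 5.67%.

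**Figure D3:**
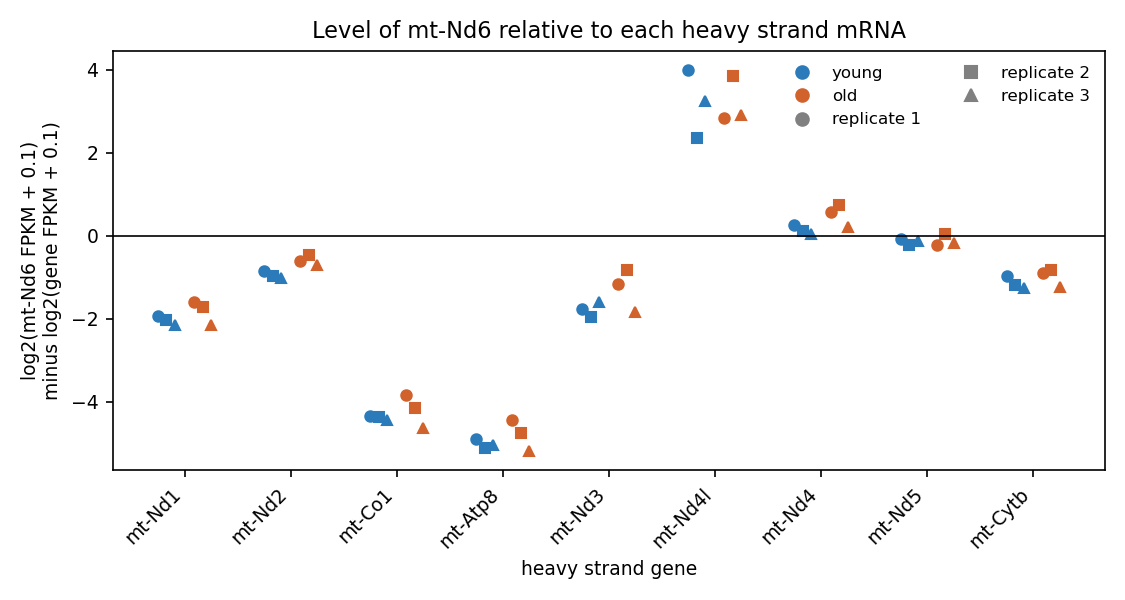
Log2 ratio of mt-Nd6 to each heavy strand gene in each sample. Colours are age groups and shapes are replicate numbers. Old replicate 3 has the lowest old ratio for most genes, and the groups are apart for mt-Nd2 alone.

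mt-Nd5 was the gene of the set nearest to mt-Nd6 over the 6 samples, with a root mean square difference of 0.09 between their centred log2 values. The next was mt-Cytb with 0.17, and the others lay between 0.20 and 0.58. mt-Nd5 is also the gene whose end overlaps with that of mt-Nd6 on the opposite strand. Of 7694 nuclear genes with a mean of at least 10 FPKM, the nearest to mt-Nd6 were Vma21 (0.08), Marcks (0.08), Fap (0.11), Ppp2r2b (0.11) and Pde4d (0.11), so that 2 nuclear genes were as near as mt-Nd5 or nearer. The median of the heavy strand genes was the value of mt-Cytb in every sample. Nearest to that pattern were Ireb2 (0.04), Cyp39a1 (0.05), Cdadc1 (0.05), Mboat2 (0.06) and Rpe (0.07). With 6 samples many genes share a simple old and young pattern, and this likeness is a description.

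Copies of mitochondrial genes inserted in the nuclear genome can share reads with the genes themselves. In the transcripts of GENCODE M21, 15 annotated copies of at least 200 matched bases and 90% identity were counted for 11 of the 13 genes. They lie on chromosomes 1, 2, 4, 11 and 13, and any matches on 1 other nuclear chromosome were left out before this count. Gm11408, Gm13340 and Gm13341 match mt-Nd6, mt-Co1 and mt-Co2 over their whole length, at 93.6, 97.6 and 95.9% identity. The counted copies are all pseudogenes, and all genes but mt-Nd1 and mt-Atp8 had one. A run of 7 lies on chromosome 1 of GRCm38 from 24611535 to 24616197 (4663 bases). Gm28661, Gm10925 and Gm28437 in it are identical to mt-Co2, mt-Atp6 and mt-Co3 over 99.6, 99.6 and 99.9% of the length of the gene. Gm10222 is identical to mt-Nd4l over 294 bases and Gm28439 to mt-Nd4 over 63.6%. Gm29216 matches mt-Co1 over 31.3% of its length at 99.8% identity, and Gm28438 matches mt-Nd3 over 99.1% with a single difference. That difference is T3C, counted from the first base of the coding sequence with the base of mt-Nd3 first, and is in capitals in the first 30 bases of each.
mt-Nd3: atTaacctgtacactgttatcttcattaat
Gm28438: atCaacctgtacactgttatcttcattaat

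Between Gm10925 and Gm28661 there are 233 bases on chromosome 1, and between the matched parts of mt-Co2 and mt-Atp6 there are also 233 bases on the mitochondrial chromosome. This is the place of mt-Atp8, for which no annotated copy was counted. The nuclear sequence of that interval was not analysed here.

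The 3 genes that the rule left out each have an identical copy over nearly their whole length, and so does the member mt-Nd4l. mt-Co2 was between 1.75 and 2.93 FPKM, mt-Atp6 between 1.44 and 4.24 FPKM and mt-Co3 between 2.74 and 4.23 FPKM in the 6 samples, from 8.85 to 29.3 estimated fragments. Just inside the rule was mt-Nd4l, between 17.4 and 49.1 FPKM. The 6 members without a counted copy of at least 99% identity had means between 276 and 8885 FPKM in young mice, the highest for mt-Atp8. mt-Nd3 went against this order, with a near-identical copy over 99.1% of its length and a mean of 949 FPKM in young mice. Such copies also cover 31.3% of mt-Co1 and 63.6% of mt-Nd4, which had means of 5776 and 250 FPKM in young mice. mt-Atp8 and mt-Atp6 are known as parts of 1 bicistronic messenger RNA, yet their FPKM values differed between 1594-fold and 4729-fold within a sample. mt-Nd4 and mt-Nd4l, also parts of 1 messenger RNA, differed between 4.73-fold and 13.5-fold. Both ratios set a short gene beside a longer one and hold the effect of the length correction, the size of which is not known for mt-Atp8 and mt-Nd4l. Of the 15 copies 1 was in the table, Gm4076, a partial copy of mt-Nd5 on chromosome 13, and it was listed at 0 in every sample. How fragments with several matching places were assigned is not given in the sources used here, and the part of the copies in these levels was not tested.

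**Figure D4:**
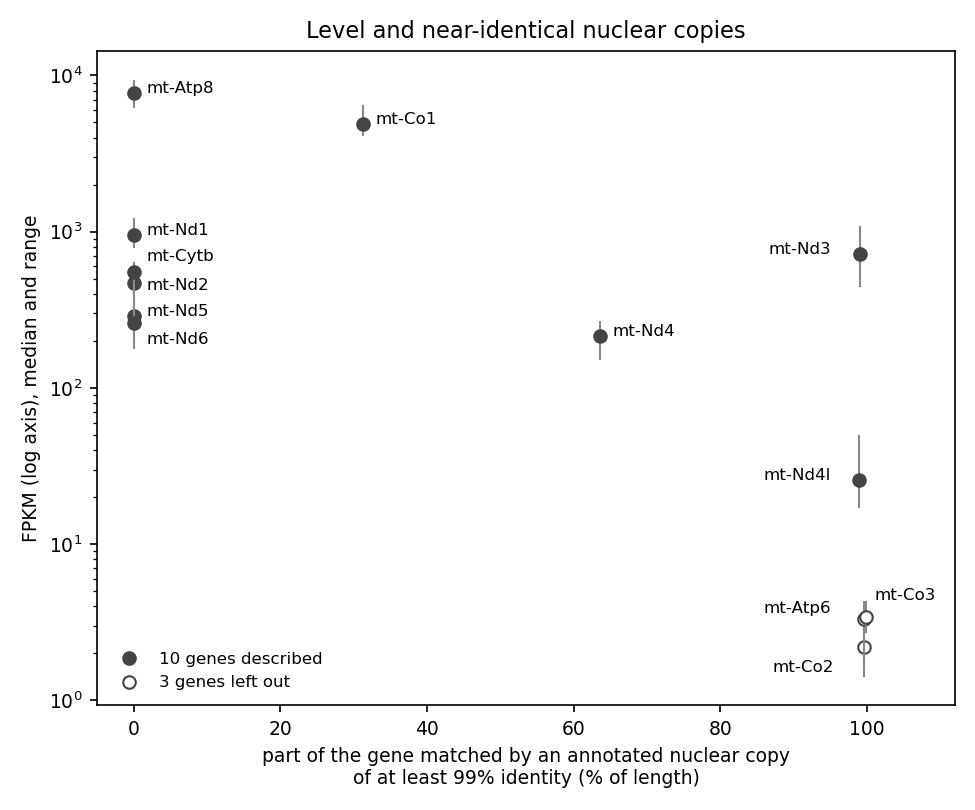
FPKM (log axis, median and range over the 6 samples) of the 13 mitochondrial messenger RNAs against the share of their length matched by a counted nuclear copy of at least 99% identity. The 3 genes left out (open points) lie at the lower right, with the highest value at 4.24 FPKM and mt-Nd4l just above them, while mt-Nd3 lies far above them.

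Nuclear genes supply the machinery that makes and handles mitochondrial RNA. Of 51 such genes, all of which were tested, 1 fell in old mice and 0 rose, which as a share is not above the background of 3.81% called lower. The median log2 change was -0.10, against 0.01 over all genes. The gene that fell was Grsf1, whose protein binds G-rich RNA in mitochondrial RNA granules, light strand transcripts included. It was at 70.3, 80.2 and 66.9 FPKM in young and at 51.8, 53.9 and 55.4 FPKM in old mice. The groups did not overlap (log2 change -0.43, SE 0.08, limma adjusted p = 0.0263). Without old replicate 1, old replicate 2, old replicate 3, young replicate 1 or young replicate 2, 0 genes of this list were called, with between 7 and 11 at an unadjusted p below 0.05.

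Lrpprc, whose protein stabilises most heavy strand messenger RNAs but not mt-Nd6, was at 27.3 ± 2.96 FPKM (SD, n = 3) in young and 22.0 ± 0.618 FPKM (SD, n = 3) in old mice, with groups that did not overlap and a limma adjusted p of 0.0894. Its partner Slirp had a log2 change of -0.16 (SE 0.24) and overlapping groups. Polrmt, the RNA polymerase of mitochondria, was at 7.35 ± 1.13 FPKM in young and 6.45 ± 1.21 FPKM in old mice. Tfam, which packs mitochondrial DNA and opens its promoters, was at 28.5 ± 9.13 FPKM in young and 26.2 ± 2.25 FPKM in old mice. Its young values ran from 19.0 to 37.2 FPKM, so that a difference of this size could not be seen. The log2 change was -0.10 (SE 0.15) for the transcription factor Tfb2m and 0.34 (SE 0.16) for the elongation factor Tefm. For the decay enzymes Supv3l1 and Pnpt1 it was -0.08 (SE 0.12) and 0.00 (SE 0.10). The limma adjusted p of these 7 genes lay between 0.213 and 0.998.

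By role, 9 of 11 transcription genes, 7 of 12 processing genes, 5 of 6 genes of stability and polyadenylation, 4 of 8 replication genes, 2 of 4 decay genes and 7 of 10 translation genes had a mean log2 change below 0. Grsf1 apart, no gene of these roles passed the test.

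The nuclear subunits that assemble with the mitochondrially encoded ones were counted from a list of 49 genes of complexes I, III, IV and V. In old mice 2 fell and 0 rose, again near the background of 3.81%, and the median log2 change was -0.09. Those that fell were Ndufs1, the largest subunit of complex I, from 101 ± 7.17 to 82.4 ± 2.11 FPKM (log2 change -0.29, limma adjusted p = 0.0429), and Cox7b, a small subunit of complex IV, from 212 ± 14.1 to 175 ± 3.07 FPKM (log2 change -0.28, limma adjusted p = 0.0435). The log2 change was below 0 for 14 of 15 genes of complex I, 9 of 9 of complex III, 9 of 10 of complex IV and 9 of 15 of complex V. The count depended on the scaling: after quantile normalization 15 of the 49 genes were called lower, against 4.18% of all genes tested in that setting. It was 0 without any single sample but young replicate 3, where it was 1, with between 5 and 15 genes at an unadjusted p below 0.05. The median of the 10 mitochondrially encoded genes, -0.42, was further below 0 than the median of either nuclear list, a difference that was not tested.

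**Figure D5:**
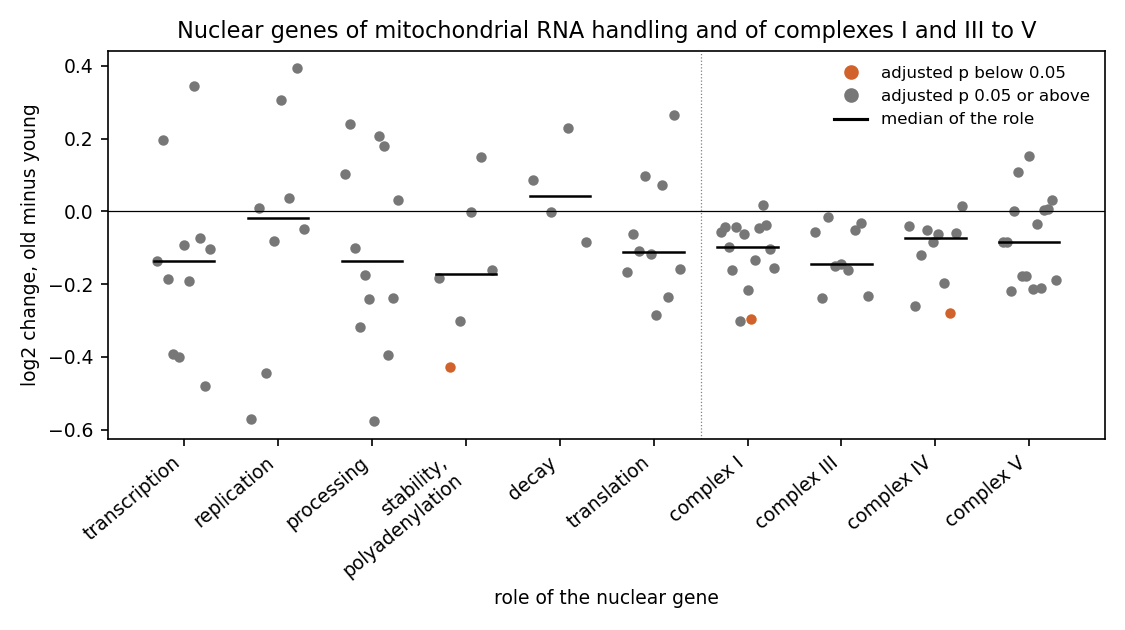
Log2 change (old minus young) of 51 nuclear genes of mitochondrial RNA handling (left of the dotted line, by role) and of 49 nuclear subunits (right, by complex). Points are genes, black lines are medians, and the 3 coloured points, Grsf1, Ndufs1 and Cox7b, passed the threshold.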

How the data were processed

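The deposited values are FPKM per transcript and sample, which the authors obtained from Cuffdiff after alignment of filtered reads to GRCm38 and assembly by Cufflinks. The submitters' notes name CASAVA 1.8, TopHat2 2.0.9, Cufflinks 2.1.1 and Cuffdiff 2.1.1. The annotation release, the library scaling and the treatment of reads with several matches are not given in the sources used here. Of 56671 transcripts, 55275 were matched to GENCODE M21 (GRCm38) and 992 are lncRNAs named by the authors; 404 unmatched ones were left out. FPKM values were summed per gene symbol. Genes with a mean of at least 0.1 FPKM were compared on log2(FPKM + 0.1) by limma 3.58.1 (R 4.3.3, functions lmFit and eBayes, variance trend on, two-sided, Benjamini-Hochberg adjustment over all genes, threshold 0.05), with age group as the only term. The code was tested on simulated data. The Cuffdiff test of the study needs reads, which were not used here.

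Depth was estimated from transcripts that were alone in their gene, where 92.9 to 94.7% of low values came within 0.1 of a whole number of fragments (20% by chance). Estimated fragments cover counting error only. Nuclear copies were searched with BLAST 2.17.0 (megablast, Python 3.11.15 for all tables and plots). Copies on chromosomes 1, 2, 4, 11 and 13 were counted, and any matches on 1 other nuclear chromosome were dropped before the count. Each sample is a pool of 3 mice, so that p-values measure the spread between pools.

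The members and gene lists were chosen with earlier results of these data known. Named genes are the members, the 3 genes left out, 9 fixed machinery genes, list genes past the threshold and the 5 nuclear genes nearest to each pattern.

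The alternatives were the pseudocount, the filter, the scaling, the variance trend, sample weights, a replicate block and each sample left out.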

Additional observations from a re-analysis of the deposited data

How the results depend on the processing

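The log2 change of the members other than mt-Nd4l was below 0 in all 16 alternatives each. Of 160 combinations of member and alternative, 105 kept direction and side of the threshold, 49 lost the call, 4 gained it and 2 turned in direction, both for mt-Nd4l (0.14 without young replicate 2 and 0.06 without old replicate 2, in a range from -0.54 to 0.14 with samples left out). The 6 called members became 2 with no filter, 0 without the variance trend (7 at an unadjusted p below 0.05 in limma) and between 0 and 4 with samples left out. Groups apart were counted for between 6 and 8 members. The machinery list went from 1 called gene to 3 with a mean of at least 1 FPKM, 4 with equal sums over nuclear genes, 2 with arrayWeights, 0 without the trend (9 unadjusted) and between 0 and 2 with samples left out. The list of nuclear subunits went from 2 to 4, 5 and 5 in the first 3 of these settings, to 15 with quantile normalization, to 0 with no filter (14 unadjusted) or without the trend (4 unadjusted) and between 0 and 1 with samples left out. Ratios of mt-Nd6 with groups apart went from 1 to between 1 and 7 with samples left out. The cause of these shifts was not tested.

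With a replicate block, 1 member (mt-Nd4, limma adjusted p = 0.0393), 0 machinery genes (9 unadjusted) and 0 nuclear subunits (11 unadjusted) were called, and the ratio of mt-Nd6 was higher in old mice in every same-numbered pair for 4 of 9 genes. Deviations from the group means of same-numbered samples correlated at 0.036, -0.095 and 0.041 across genes. Not every sample correlated best with its own number. Whether same-numbered samples share more than a number cannot be told from this. With the block the SE of the log2 change was lower for mt-Nd2, mt-Nd3, mt-Nd4, mt-Nd5, mt-Nd6 and mt-Cytb. It was higher for mt-Nd1, mt-Co1, mt-Atp8 and mt-Nd4l. Genes called over the whole table went from 742 lower and 1097 higher to 300 and 460 with the block, 405 and 762 with no filter and 127 and 285 without the trend, and to 1063 and 867 with equal sums over nuclear genes. With samples left out they lay between 16 and 825 lower and 46 and 950 higher. Adding the counted nuclear copy in the table could change no ratio, since it is at 0 in every sample. Fragment numbers for the short members cannot be estimated from FPKM.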
